A study of Mus musculus with 12 samples.

Results

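Triglyceride synthesis and lipolysis were followed through 10 genes, taken from the deposited expression table by symbol: Gpam, Agpat2, Lpin1, Lpin2, Dgat1, Dgat2, Mogat1, Pnpla2, Pnpla3 and G0s2. Values were at hand for 9 of the 10, out of 12284 named genes in the table, which its authors had filtered; Mogat1, a monoacylglycerol acyltransferase, was not analysed here. The liver samples were 6 double knockout (DKO) and 6 wild-type (WT), with 1 library of polyadenylated RNA for each. All mice carried Acly f/f; Acss2 f/f alleles, and at an age of 6 to 8 weeks the DKO group received AAV8-TBG-Cre and the WT group AAV8-TBG-GFP. TBG is a hepatocyte-specific promoter, so other liver cells were not targeted. Since the viruses differ in cargo, what the deletion did and what Cre or GFP did cannot be told apart. From 1 week after the injection, both groups were fed Teklad TD.88137, a Western diet, and livers were taken after 6 weeks of it. The comparison asks what the loss of ATP citrate lyase and of acyl-CoA synthetase short-chain 2, which supply cytosolic acetyl-CoA from citrate and from acetate, does to lipid genes of the liver on this diet.

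Hepatocytes build triglyceride by adding fatty acids stepwise to glycerol 3-phosphate. Glycerol 3-phosphate acyltransferases such as Gpam make lysophosphatidate, acylglycerophosphate acyltransferases such as Agpat2 make phosphatidate, the lipins Lpin1 and Lpin2 remove its phosphate to give diacylglycerol, and Dgat1 and Dgat2 add the last acyl chain. Stored triglyceride is broken down by Pnpla2 (adipose triglyceride lipase), which G0s2 binds and inhibits, while Pnpla3 is a droplet protein of the same patatin family and a target of SREBP1c in mouse liver.

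Values are log2 CPM, that is, log2 of counts scaled to the size of the library, which the authors had already filtered for low genes and normalized. CPM takes no account of transcript length, so levels are compared between groups for 1 gene and not between genes. Acly was at 4.42 to 6.60 log2 CPM (median 4.65) in DKO and at 6.56 to 9.35 (median 7.51) in WT livers, and Acss2 at 3.59 to 5.74 (median 4.01) in DKO and at 6.12 to 7.45 (median 6.35) in WT. All Acss2 values were lower in DKO than in any WT library, as were 5 of the 6 Acly values. Among DKO libraries Acly was highest in DKO 1 (6.60) and DKO 2 (5.70), while Acss2 was highest in DKO 1 (5.74) and DKO 3 (4.83) and lowest in DKO 2 (3.59). The back-transformed values of a library summed to between 905964 and 1087990 CPM, libraries of 1 group correlated at Pearson r 0.94 to 0.97 across genes, and read depth is unknown. Libraries DKO 1, DKO 2 and WT 1 stood apart from the rest of their groups for several of the genes described here. Some of the results that rest on them are also given without them. The labels do not tie each library to its own animal, and p-values therefore measure only the spread between these libraries.

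Of the 9 triglyceride genes, 1 fell in DKO livers, Agpat2, and 0 rose. That is 11.1% of the 9, beside 1.74% of all genes called by limma at an adjusted p below 0.05 (1.12% lower and 0.619% higher in DKO). In all, 6 of the 9 had a lower mean in DKO than in WT, and their median log2 fold change was -0.23, beside 0.00414 over all genes. At an unadjusted limma p below 0.05 there were 4, Agpat2, Dgat1, Dgat2 and G0s2, and each had the lower mean in DKO (16.4% of all genes passed that threshold, 8.47% with the lower mean in DKO). The 6 DKO and 6 WT values did not overlap for 2 of the 9, Agpat2 and Dgat1, beside 2.17% of all genes (1.38% lower and 0.79% higher in DKO). With so few genes these shares are a description only. Liver RNA was measured in bulk, so fewer cells of a type and less RNA per cell cannot be told apart.

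**Figure D1:**
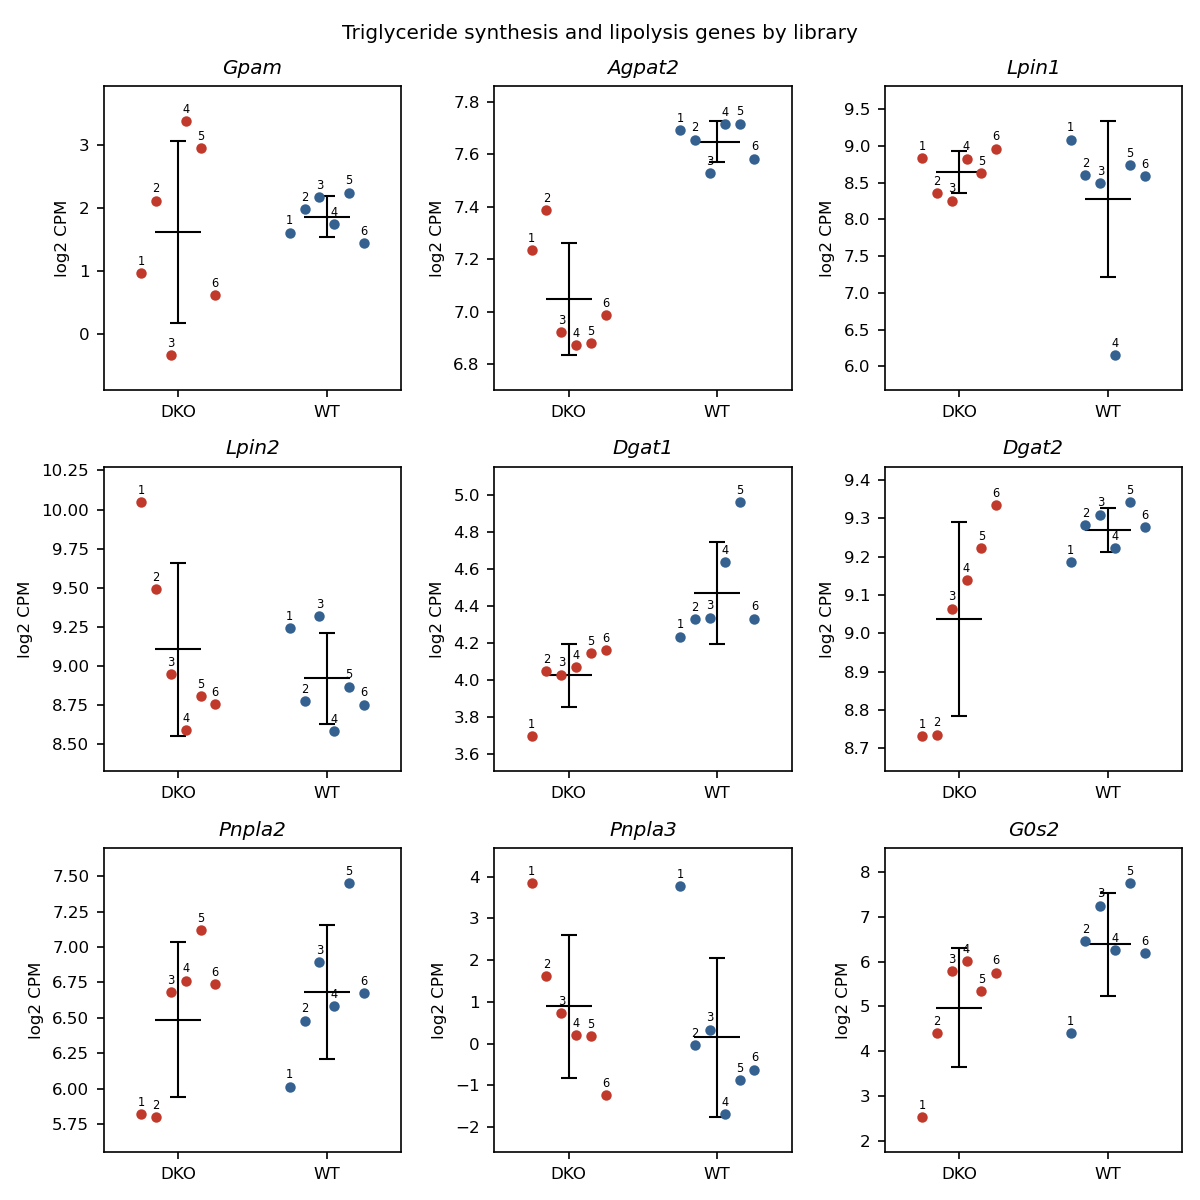
log2 CPM (vertical axes) of 9 genes of triglyceride synthesis and lipolysis in the 6 DKO (red) and 6 WT (blue) libraries; small numbers are library numbers, and bars are the group mean with SD. All 6 DKO values of Agpat2 and of Dgat1 lie below the lowest WT value, while WT 4 lies far below the other WT libraries for Lpin1 and both libraries numbered 1 lie far above the rest for Pnpla3.

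Agpat2, the enzyme that turns lysophosphatidate into phosphatidate and whose loss causes a congenital lipodystrophy in humans, was at 6.87 to 7.39 log2 CPM (median 6.95) in DKO and at 7.53 to 7.72 (median 7.67) in WT livers. Every DKO library lay below every WT library. The mean was 7.05 ± 0.21 log2 CPM in DKO and 7.65 ± 0.08 in WT (SD, n = 6 each), so Agpat2 fell to 65.9% of the WT level (95% confidence interval 57.4% to 75.7%). On the log2 scale the change was -0.60 with an SE of 0.09 (adjusted p = 0.00678 by limma; the 2-sided exact permutation test gave 0.00216, the smallest p that 6 against 6 libraries allow). The adjusted p stayed between 0.00124 and 0.0231 with any 1 library left out. Within the DKO group the values split into DKO 1 and DKO 2, at 7.23 and 7.39, and the other 4 libraries, at 6.87 to 6.99. Without DKO 1 and DKO 2, a comparison chosen after seeing the data, the log2 fold change was -0.73 (limma adjusted p = 0.000445). Agpat2 had a small spread, with a residual SD of 0.16 on the log2 scale around the group means, and 17.4% of all genes had a smaller one.

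The window around the start of Agpat2 is shown because it is the gene of the set that changed. The sequence is from RefSeq on build GRCm38.p6, chr2:26604368-26604667, minus strand, 250 bases before to 50 after the start, written 5′ to 3′ in the direction of transcription. Capitals mark the GC box GGGCGG, searched on both strands together with the E-box CACGTG, the CCAAT box CCAAT, the nuclear receptor half-site AGGTCA and the TATA box TATAAA.
Agpat2: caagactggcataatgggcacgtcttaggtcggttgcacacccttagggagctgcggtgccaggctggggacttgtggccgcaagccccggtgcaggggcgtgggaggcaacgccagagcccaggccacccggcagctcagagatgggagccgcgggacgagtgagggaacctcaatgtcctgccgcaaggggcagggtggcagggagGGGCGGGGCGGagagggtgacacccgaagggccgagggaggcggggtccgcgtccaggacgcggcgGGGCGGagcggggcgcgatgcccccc
The window held the GC box 3 times, with 2 of the copies overlapping by 1 base, and none of the other 4 motifs. Its GC content was 72.0%. Among 32851 windows of the same length around mouse gene starts, 35.7% held a GC box, 37.4% a CCAAT box, 16.3% the half-site, 13.6% the TATA box and 7.15% the E-box.

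By the likeness of their values once group means were removed, the 3 genes closest to Agpat2 over the 12 libraries were Txnl4b (Pearson r 0.93), Txndc11 (r 0.93) and Cmpk2 (r 0.92). None of the 3 was called: their log2 fold changes between DKO and WT were 0.01 for Txnl4b (limma adjusted p = 0.983), 0.29 for Txndc11 (0.334) and -0.09 for Cmpk2 (0.922). Among DKO libraries, all 3 were highest in DKO 1 and DKO 2, as Agpat2 was. Cmpk2 was at 2.74 and 3.29 log2 CPM there, against 1.37 to 1.94 in the other DKO libraries. Txnl4b was at 3.63 and 3.82, against 2.81 to 3.23. Txndc11 was at 5.79 in both, against 5.06 to 5.14. The values of r without DKO 1 and DKO 2 were not computed.

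Gpam, the mitochondrial glycerol 3-phosphate acyltransferase that opens the pathway, was at -0.34 to 3.38 log2 CPM (median 1.54) in DKO and at 1.44 to 2.25 (median 1.86) in WT livers. DKO libraries lay on both sides of the WT range, 3 below it and 2 above it. The mean was 1.62 ± 1.44 log2 CPM in DKO and 1.86 ± 0.32 in WT (SD, n = 6 each), and the log2 fold change was -0.25 (95% confidence interval -1.38 to 0.88; limma adjusted p = 0.867). The DKO libraries were highest in DKO 4 (3.38) and DKO 5 (2.96) and lowest in DKO 3, and the sign of the difference turned to 0.14 without DKO 3.

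The lipins are phosphatidate phosphatases, and Lpin1 also acts as a coactivator of PPARα in mouse liver. Lpin1 was at 8.26 to 8.96 log2 CPM (median 8.73) in DKO and at 6.15 to 9.09 (median 8.59) in WT livers. The low end of the WT range was a single library, WT 4, and the other 5 WT libraries spanned 8.49 to 9.09. Lpin1 had a log2 fold change of 0.37 (95% confidence interval -0.45 to 1.19; limma adjusted p = 0.687) with all libraries and -0.06 (adjusted p = 0.899) without WT 4. Lpin2 was at 8.59 to 10.05 log2 CPM (median 8.88) in DKO and at 8.58 to 9.32 (median 8.82) in WT. Its 2 highest values were those of DKO 1 (10.05) and DKO 2 (9.49), while the other 4 DKO libraries, at 8.59 to 8.95, lay within the WT range. Lpin2 had a log2 fold change of 0.18 (95% confidence interval -0.30 to 0.66; limma adjusted p = 0.738), and it was -0.0055 without DKO 1 and -0.15 (adjusted p = 0.671) without DKO 1 and DKO 2.

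Dgat1 and Dgat2 are unrelated proteins that catalyse the same final acylation, and in hepatocytes Dgat2 is known for using newly made fatty acids. Dgat1 was at 3.70 to 4.16 log2 CPM (median 4.06) in DKO and at 4.23 to 4.96 (median 4.34) in WT livers. Every DKO library lay below every WT library, although the highest DKO library, DKO 6, was only slightly under the lowest WT library, WT 1. Dgat1 had a log2 fold change of -0.45 (SE 0.13, 95% confidence interval -0.73 to -0.16), 73.4% of the WT level, with an exact permutation p of 0.00216. It did not pass the threshold over all genes (limma adjusted p = 0.0981), and its adjusted p lay between 0.0701 and 0.181 with any 1 library left out.

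Dgat2 was at 8.73 to 9.33 log2 CPM (median 9.10) in DKO and at 9.19 to 9.34 (median 9.28) in WT livers. Its 2 lowest values, 8.73 in DKO 1 and 8.74 in DKO 2, stood apart from those of the other 4 DKO libraries, 9.06 to 9.33, of which DKO 5 and DKO 6 lay within the WT range. For Dgat2 the log2 fold change was -0.23, with an SE of 0.10 and a 95% confidence interval of -0.46 to -0.0088 (limma adjusted p = 0.286; exact permutation p = 0.0455). Without DKO 1 and DKO 2 it was -0.08 (limma adjusted p = 0.661).

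The lipase Pnpla2 was at 5.80 to 7.12 log2 CPM (median 6.71) in DKO and at 6.01 to 7.45 (median 6.63) in WT livers, and the groups overlapped over most of their range. The lowest values were those of DKO 2 (5.80), DKO 1 (5.82) and WT 1 (6.01). Its log2 fold change was -0.20 (95% confidence interval -0.75 to 0.35; limma adjusted p = 0.758), and 0.14 without DKO 1 and DKO 2.

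G0s2, the inhibitor of Pnpla2, had the largest difference of the 9 genes and did not pass the test. It was at 2.52 to 6.01 log2 CPM (median 5.54) in DKO and at 4.40 to 7.75 (median 6.35) in WT livers. Each of the 6 DKO values was under the WT mean, and the overlap came from WT 1, at 4.40, since the other 5 WT libraries lay at 6.19 or above. The mean was 4.97 ± 1.33 log2 CPM in DKO and 6.38 ± 1.15 in WT (SD, n = 6 each), 37.5% of the WT level (95% confidence interval 15.2% to 92.7%). For G0s2 the log2 fold change was -1.42 with an SE of 0.61 (adjusted p = 0.263 by limma, and p = 0.0736 by the exact permutation test). Its size depended on single libraries: it was -0.93 (adjusted p = 0.400) without DKO 1, -0.66 (adjusted p = 0.560) without DKO 1 and DKO 2, -1.81 (adjusted p = 0.097) without WT 1, and -1.32 (adjusted p = 0.0773) without both libraries numbered 1.

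Pnpla3 was at -1.23 to 3.84 log2 CPM (median 0.47) in DKO and at -1.69 to 3.78 (median -0.33) in WT livers. DKO 1 and WT 1 were the highest libraries of their groups and close to each other, and the groups overlapped. Its log2 fold change was 0.74 (95% confidence interval -1.20 to 2.68; limma adjusted p = 0.739), -0.18 without DKO 1 and DKO 2 and 1.47 (adjusted p = 0.308) without WT 1. Its residual SD of 1.82 on the log2 scale exceeded that of 99.1% of all genes, and those of G0s2 (1.24) and Gpam (1.04) exceeded 97.3% and 96.3%.

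**Figure D2:**
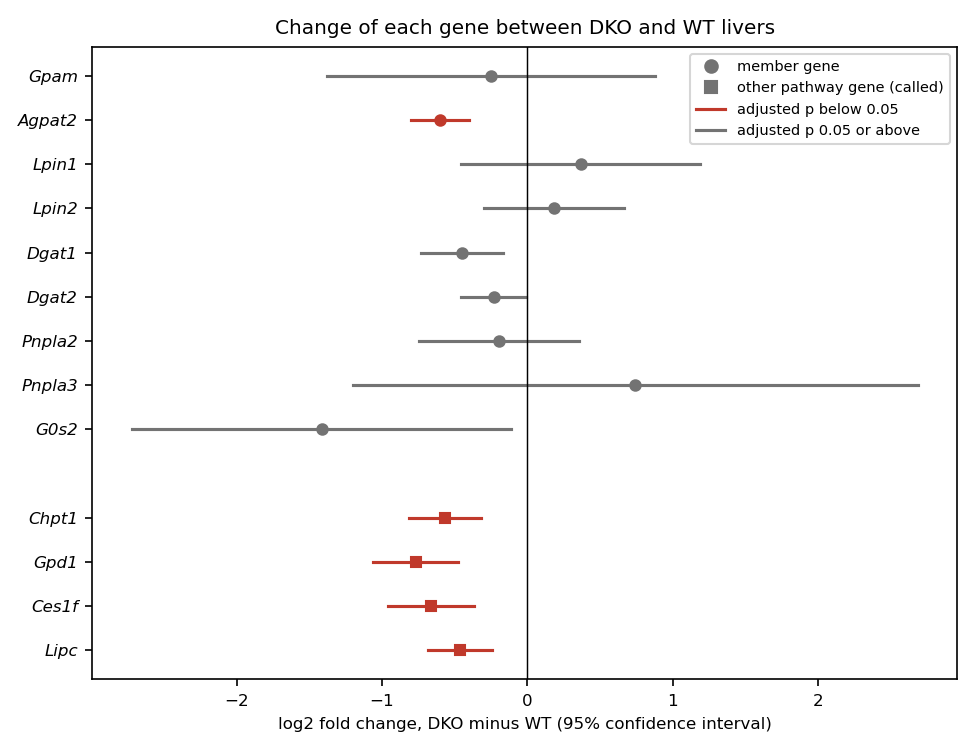
log2 fold change (horizontal axis) of 9 triglyceride genes (circles) and of the 4 other genes of the pathway that were called (squares), DKO minus WT, with 95% confidence intervals from limma over 12 libraries. Agpat2 (-0.60) is the red circle, and the intervals of Pnpla3, G0s2 and Gpam are the widest of the circles.

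Whether partners changed unequally was tested on the difference of 2 genes in log2 CPM within each library, in which transcript length cancels between the groups. G0s2 minus Pnpla2, the inhibitor against its lipase, was -3.30 to -0.75 in DKO and -1.62 to 0.35 in WT libraries. It averaged -1.52 ± 0.95 in DKO and -0.30 ± 0.72 in WT (SD, n = 6 each), a difference of -1.22, so the ratio in DKO was 43.0% of that in WT. Every DKO library was under the WT mean. The difference did not pass once adjusted over the 5 pairs (exact permutation p = 0.0238, adjusted p = 0.119). It passed without WT 1 (difference -1.48, adjusted p = 0.0216) and without both libraries numbered 1 (-1.13, adjusted p = 0.0397), and not without DKO 1 and DKO 2 (-0.81, adjusted p = 0.226).

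The other 4 pairs did not pass the exact permutation test. Dgat1 minus Dgat2 differed by -0.21 between DKO and WT (adjusted p = 0.319), with 5 of 6 DKO libraries below every WT library and DKO 2 above the WT mean. Lpin1 minus Lpin2 differed by 0.19 (adjusted p = 0.729), and by -0.17 without WT 4. Pnpla3 minus Pnpla2 differed by 0.94 (adjusted p = 0.722) with all libraries and by -0.32 without DKO 1 and DKO 2, by 1.80 without WT 1 and by 0.21 without DKO 1. Agpat2 minus Gpam differed by -0.35 (adjusted p = 0.722) and ranged over 3.49 to 7.26 in DKO, against 5.36 to 6.14 in WT.

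**Figure D3:**
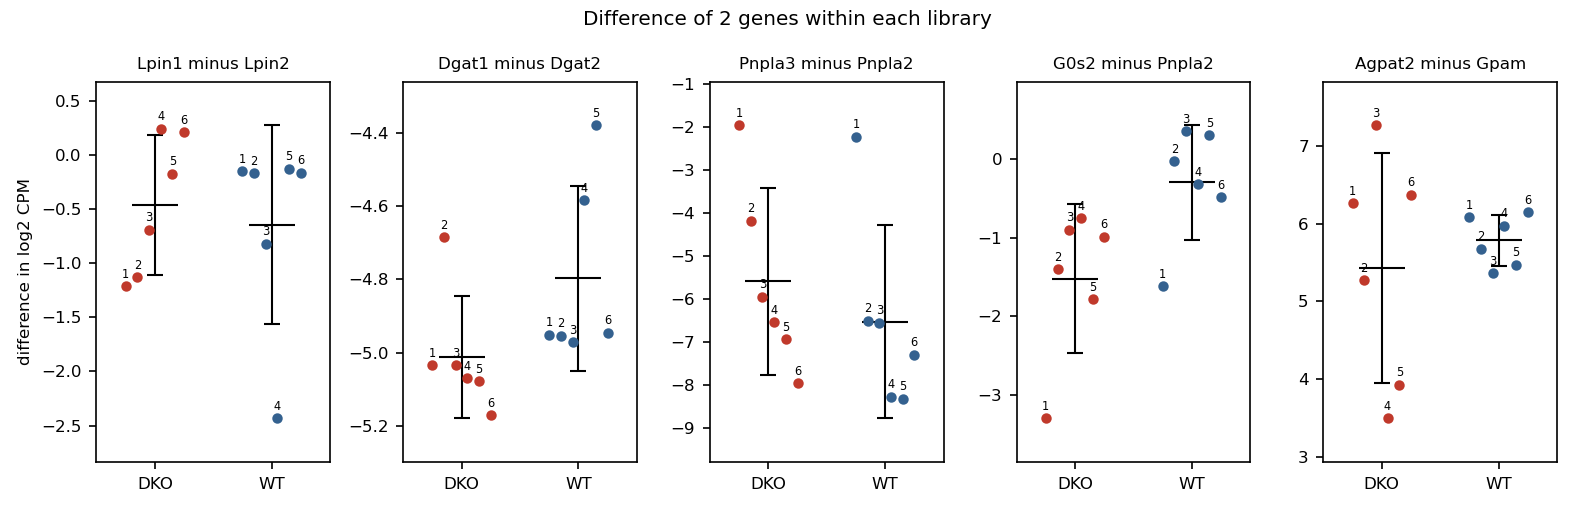
Difference of 2 genes in log2 CPM within each library (vertical axes) for 5 pairs, in 6 DKO (red) and 6 WT (blue) libraries, with library numbers and group means with SD. G0s2 minus Pnpla2 lies at -0.75 or below in DKO, and WT 1 (-1.62) is the WT library within that range.

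Beside the group difference, several of the genes varied together from library to library. Over 12 libraries with group means removed, 8 of the 36 pairs of the 9 genes had a correlation that passed after adjustment over the pairs (Pearson, permutation within groups), 6 positive and 2 negative; 3 of them also passed by Spearman. All 8 had the same sign within the DKO and within the WT libraries. They were chosen on these same libraries, so this is no separate check. G0s2, Pnpla2 and Dgat2 went together, and Lpin2 went with Pnpla3. Gpam, Lpin1 and Agpat2 were in none of the 8.

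G0s2 followed Pnpla2 with Pearson r 0.86 (permutation p = 0.00102, adjusted p = 0.0169) and Spearman rho 0.85 (permutation p = 0.00161, adjusted p = 0.0246). Within groups r was 0.80 in DKO and 0.94 in WT, and it was 0.86 without DKO 2 and WT 1, the libraries farthest from the median of Pnpla2. DKO 1 and DKO 2 were the lowest DKO libraries for both the lipase (5.82 and 5.80 log2 CPM) and its inhibitor (2.52 and 4.40). Among the other DKO libraries, DKO 5 had the highest Pnpla2 (7.12) and the lowest G0s2 (5.34). For this pair, r without DKO 1 and DKO 2 was not computed. Dgat2 followed Pnpla2 (r 0.81, permutation p = 0.00141, adjusted p = 0.0169; rho 0.90, permutation p = 0.00032, adjusted p = 0.0115) and G0s2 (r 0.73, permutation p = 0.00248, adjusted p = 0.0179; rho 0.81, permutation p = 0.00205, adjusted p = 0.0246). Without DKO 1 and DKO 2, the libraries farthest in Dgat2, r was 0.53 and 0.44, so the size of both over 12 libraries rested on those libraries. Within groups, r of Dgat2 with Pnpla2 was 0.92 in DKO and 0.90 in WT. With G0s2 it was 0.81 in DKO and 0.93 in WT.

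Lpin2 and Pnpla3 went together with r 0.80 (permutation p = 0.00105, adjusted p = 0.0169) and rho 0.75 (permutation p = 0.00627, adjusted p = 0.0519). The value was r 0.76 without DKO 1 and WT 3, and r 0.92 within DKO and 0.74 within WT. DKO 1 and DKO 2 held the highest DKO values of both Lpin2 (10.05 and 9.49 log2 CPM) and Pnpla3 (3.84 and 1.61). For Lpin2 with Pnpla3, r without DKO 1 and DKO 2 was not computed. Pnpla3 ran against Dgat2 (r -0.68, permutation p = 0.00248, adjusted p = 0.0179; r -0.53 without DKO 1 and DKO 2; rho -0.62, permutation p = 0.0351, adjusted p = 0.147). Pnpla3 also ran against G0s2 (r -0.82, permutation p = 0.0079, adjusted p = 0.0411; rho -0.47, permutation p = 0.147, adjusted p = 0.294), but this rested on the libraries numbered 1, without which r was -0.24. Dgat1 went with Pnpla2 (r 0.72, permutation p = 0.008, adjusted p = 0.0411; rho 0.65, permutation p = 0.0265, adjusted p = 0.136) and with G0s2 (r 0.71, permutation p = 0.0099, adjusted p = 0.0446; rho 0.61, permutation p = 0.045, adjusted p = 0.147). Both rested on DKO 1 and WT 5, without which r was 0.34 and 0.30.

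**Figure D4:**
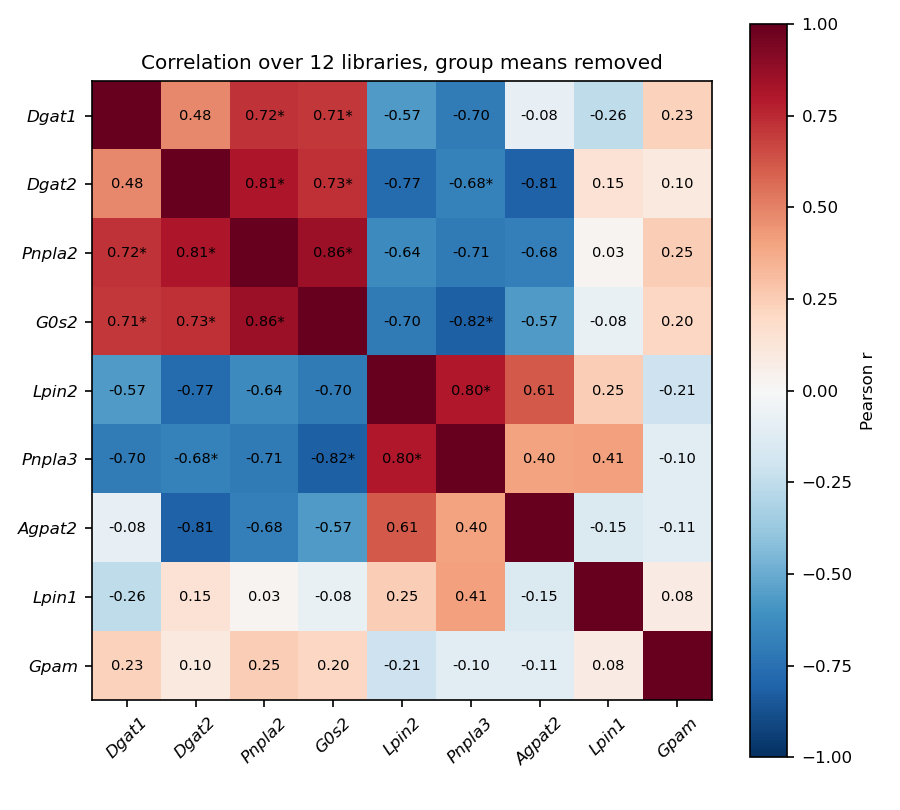
Pearson correlation (colour and number) between 9 triglyceride genes over 12 libraries after removal of group means; an asterisk marks an adjusted p below 0.05 over 36 pairs. Values of r among Dgat1, Dgat2, Pnpla2 and G0s2 are positive, but Dgat1 with Dgat2 (0.48) did not pass. Those of Dgat1 with Pnpla2 and with G0s2 rested on DKO 1 and WT 5. Lpin2 and Pnpla3 (0.80) form a separate positive pair.

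**Figure D5:**
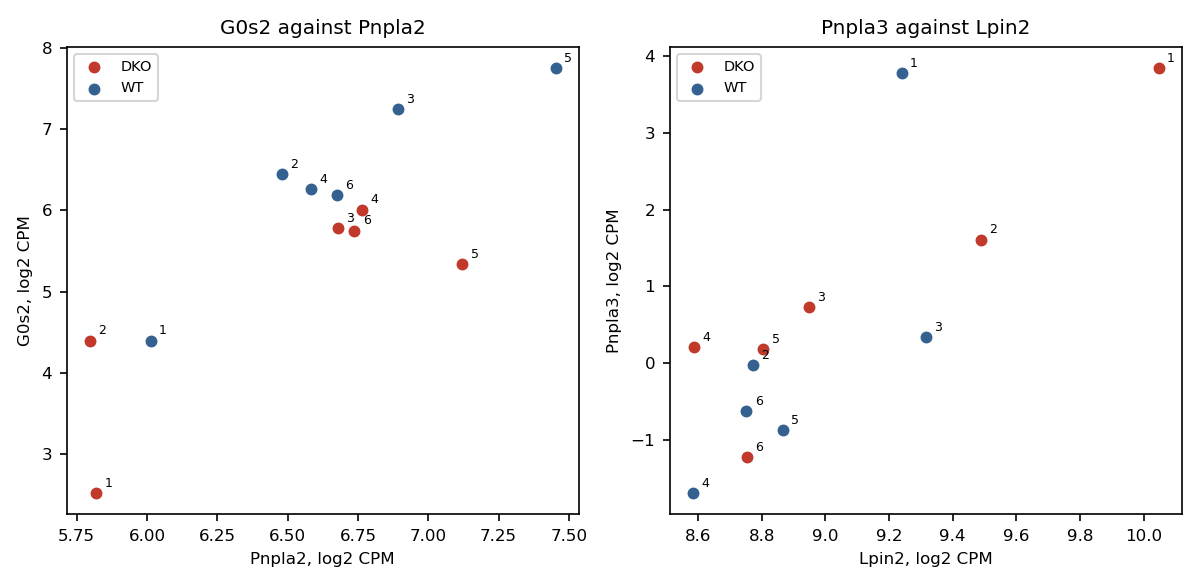
G0s2 against Pnpla2 (left) and Pnpla3 against Lpin2 (right), in log2 CPM on both axes, for 6 DKO (red) and 6 WT (blue) libraries labelled by number. At the upper end of Pnpla2 the DKO libraries lie below the WT libraries in G0s2, and DKO 1 holds the highest Lpin2 (10.05) and the highest Pnpla3 (3.84).

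The windows around the starts of Pnpla2, G0s2 and Pnpla3 are shown because Pnpla2 and G0s2 varied together and Pnpla3 is the patatin relative of Pnpla2. They are from RefSeq on build GRCm38.p6, for Pnpla2 chr7:141454938-141455237 (plus strand), for G0s2 chr1:193273139-193273438 (minus strand) and for Pnpla3 chr15:84167566-84167865 (plus strand), with capitals for the same 5 motifs on either strand.
Pnpla2: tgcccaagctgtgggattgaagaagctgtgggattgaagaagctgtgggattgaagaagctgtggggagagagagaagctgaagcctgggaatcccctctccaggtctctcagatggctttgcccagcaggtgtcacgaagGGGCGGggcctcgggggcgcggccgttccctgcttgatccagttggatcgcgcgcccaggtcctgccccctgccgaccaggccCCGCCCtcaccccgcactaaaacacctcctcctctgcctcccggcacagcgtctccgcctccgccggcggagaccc
G0s2: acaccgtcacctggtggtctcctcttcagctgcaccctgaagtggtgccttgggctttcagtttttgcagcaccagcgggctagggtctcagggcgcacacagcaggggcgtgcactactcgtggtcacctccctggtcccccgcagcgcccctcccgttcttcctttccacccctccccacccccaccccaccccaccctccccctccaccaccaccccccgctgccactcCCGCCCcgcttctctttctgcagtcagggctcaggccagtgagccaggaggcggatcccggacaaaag
Pnpla3: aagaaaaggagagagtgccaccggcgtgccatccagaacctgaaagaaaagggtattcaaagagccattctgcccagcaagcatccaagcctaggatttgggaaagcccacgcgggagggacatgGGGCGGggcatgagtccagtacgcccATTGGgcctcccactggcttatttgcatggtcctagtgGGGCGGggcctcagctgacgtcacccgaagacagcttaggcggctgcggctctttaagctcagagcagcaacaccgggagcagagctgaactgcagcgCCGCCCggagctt
The GC box or its reverse complement stood 2 times in the Pnpla2 window, 1 time in that of G0s2 and 3 times in that of Pnpla3. Of these 3 windows, that of Pnpla3 also held a CCAAT box on the reverse strand, and none held the E-box, the half-site or the TATA box.

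In the rest of the pathway, 4 genes fell in DKO livers, Gpd1, Chpt1, Ces1f and Lipc, and 0 rose, among 56 measured of 59 listed genes of acylglycerol synthesis, substrate supply, lipolysis and their control. That is 7.14% of the 56, beside the 1.74% of all genes. Over the 56 genes the log2 fold changes had a median of -0.13, beside 0.00414 over all genes, and 38 of the 56 had a lower mean in DKO (67.9%, beside 49.2% of all genes). The count was 2 without DKO 1, DKO 3, DKO 5 or WT 2 and 1 without DKO 4, WT 3, WT 4, WT 5 or WT 6. Gpd1 alone kept its call with each single library left out. The count was also 1 without limma's mean trend or after quantile normalization. Without DKO 1 and DKO 2, left out after seeing the data, the count was 3 (Ces1f, Gpd1 and the regulator Mlxipl).

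Gpd1, the cytosolic dehydrogenase that makes glycerol 3-phosphate, the backbone on which the acyltransferases work, was at 7.68 to 8.39 log2 CPM (median 7.89) in DKO and at 8.46 to 9.09 (median 8.72) in WT. The groups did not overlap. Gpd1 fell to 58.7% of the WT level (log2 fold change -0.77, SE 0.14; adjusted p = 0.0144 by limma, p = 0.00216 by exact permutation). Among the other 3 genes of glycerol 3-phosphate supply, Gpd1l, glycerol kinase and the glycerol channel Aqp9, 0 were called.

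Chpt1, a choline phosphotransferase that takes diacylglycerol into phosphatidylcholine, was at 7.31 to 7.90 log2 CPM (median 7.50) in DKO and at 7.85 to 8.38 (median 8.17) in WT, and fell to 67.6% of WT (limma adjusted p = 0.0282). Ces1f, a carboxylesterase of the family that hydrolyses hepatic triglyceride, was at 7.49 to 8.37 (median 8.02) in DKO and at 8.28 to 8.89 (median 8.70) in WT, and fell to 63.2% of WT (adjusted p = 0.0292). Lipc, the secreted hepatic lipase, was at 6.42 to 7.01 (median 6.62) in DKO and at 6.95 to 7.26 (median 7.12) in WT, and fell to 72.6% of WT (adjusted p = 0.0372). For each of these 3 genes, 5 of 6 DKO libraries lay below the lowest WT library. Ces1f has close paralogs, among them Ces1d, so its level may include shared reads. With single libraries left out, the adjusted p reached 0.0728 for Chpt1, 0.0758 for Ces1f and 0.0878 for Lipc. Leaving out DKO 1 and DKO 2 was chosen after seeing the data. Without them, the limma adjusted p was 0.0927 for Chpt1, 0.0544 for Lipc and 0.0244 for Ces1f.

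In the remaining roles 0 genes were called by limma, and the gene with the smallest p of each is given. Gpat4, a glycerol 3-phosphate acyltransferase of the endoplasmic reticulum, was at 6.98 to 7.95 log2 CPM in DKO and at 7.60 to 8.91 in WT (log2 fold change -0.64, adjusted p = 0.135). Among the other 5 measured acylglycerophosphate acyltransferases, Agpat1, Agpat3, Agpat4, Agpat5 and Lclat1, the log2 fold changes ran from -0.14 to 0.16, and the smallest p was that of Agpat5 (0.16, adjusted p = 0.561). Plpp3, a lipid phosphate phosphatase of membranes, differed by -0.37 (adjusted p = 0.118), and Acsl1, an acyl-CoA synthetase, by -0.65 (adjusted p = 0.136). Abhd6, a monoglyceride lipase, differed by -0.63 (adjusted p = 0.163).

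Among regulators of the lipases, Faf2, which binds Pnpla2 at lipid droplets in human cells, was at 5.67 to 6.20 log2 CPM in DKO and at 5.39 to 5.62 in WT. All 6 DKO values lay above every WT value, with a log2 fold change of 0.37 and an adjusted p of 0.0928 by limma. Abhd5, the activator of Pnpla2, differed by -0.01 (adjusted p = 0.982), a value added after it was seen. Of the transcriptional regulators, Mlxipl, the gene of ChREBP, had the smallest p, at 7.88 to 8.76 log2 CPM in DKO and 8.49 to 9.34 in WT (log2 fold change -0.59, adjusted p = 0.0928). Srebf1, also added after its value was seen, was at 7.77 to 9.78 log2 CPM in DKO and at 8.60 to 10.07 in WT (log2 fold change -0.86, adjusted p = 0.230).

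Markers of liver cell types moved with the groups as follows. Of 8 hepatocyte markers 1 fell and 0 rose, the median of their log2 fold changes was -0.14, and their summed level was 54320 to 84839 CPM in DKO and 65562 to 79911 CPM in WT. Of 7 measured macrophage markers 2 rose, Lyz2 and Gpnmb, and all 7 had higher means in DKO, with a summed level of 258 to 402 CPM in DKO and 195 to 346 CPM in WT. Of the 6 adipocyte markers, 2 had values, Cfd and Fabp4, and Adipoq, Lep, Plin1 and Retn were not analysed here. Cfd fell, at -3.26 to 1.77 log2 CPM in DKO against -0.37 to 4.27 in WT, and Fabp4 was not called. The summed level of both was 5.72 to 16.6 CPM in DKO and 9.50 to 23.5 CPM in WT. The value -3.26 was the lowest log2 CPM of any gene. Cfd was at it in DKO 1 and DKO 6, and Gpnmb in WT 1, WT 4 and WT 6. Of 14 measured clock and feeding genes, 4 endothelial, 4 stellate and 3 measured cholangiocyte markers, 0 were called by limma. At an unadjusted limma p below 0.05, beside 16.4% of all genes, there were 6 of 7 macrophage markers, all higher in DKO, and 2 of 8 hepatocyte markers, both lower. At the same threshold there were 3 of 14 clock and feeding genes, all lower, 3 of 4 endothelial and 2 of 4 stellate markers, all higher, 1 of 2 adipocyte markers, which was lower, and 0 of 3 cholangiocyte markers. Summed levels were 2774 to 4701 CPM in DKO and 2806 to 5473 CPM in WT for clock and feeding genes and 132 to 185 CPM in DKO and 128 to 153 CPM in WT for endothelial markers, of which all 4 had higher means in DKO. Stellate markers summed to 256 to 329 CPM in DKO and 224 to 287 CPM in WT, and cholangiocyte markers to 4.78 to 10.2 CPM in DKO and 5.81 to 8.68 CPM in WT. Most of the hepatocyte sum was Alb, and most of the clock and feeding sum was Pck1, so these sums say little of the other genes. The part of these markers in the changes of Agpat2, Gpd1, Chpt1, Ces1f and Lipc was not tested.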

How the data were processed

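RNA was measured in 12 liver libraries, and groups were taken from the genotype label. The deposited table holds log2 CPM that the authors filtered and normalized, as its name states, with filter, added count and scaling factors not given in the sources at hand. Per the submitters' processing notes, kallisto 0.46.2, edgeR, limma and the build GRCm39 (mm39) were used, with no role for each. The table has 12285 lines, and 1 without a gene name, with 0.0075% to 0.0148% of a library's CPM, was dropped. Depth is unknown, so precision was judged from the spread between libraries.

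All 12284 genes were fitted with limma 3.58.1 in R 4.3.3 (mean trend, no covariate, no filter, 2-sided), with Benjamini-Hochberg adjustment over all of them; calls needed an adjusted p below 0.05. Exact permutation tests used all 924 divisions into 6 and 6, and correlations 100000 permutations within groups (scipy 1.17.1). In simulated data over 12284 genes, the fit recovered 29.9%, 77.6% and 97.0% of genes changed by 0.5, 1 and 2 on the log2 scale. There were 8 false calls among 144 calls. Values were drawn independently for each gene from its own mean and residual SD. Shifts shared by many genes of a library were not simulated, so these shares may not hold for the real libraries. Members and lists were chosen with earlier results of these data known. Of the pathway list, 6 genes were found under an older symbol, such as Agpat6 for Gpat4 and Gyk for glycerol kinase. Named were the members, Acly and Acss2, every called pathway gene or else the one with the smallest p in its role, and the 3 genes most like a called member. Promoter windows of 8 of the 10 genes were found in the RefSeq table, and the coordinates printed are of its build, not of the authors'. Alternatives were other limma settings, log2(CPM + 1), a minimum mean of 1 or of 3 on the log2 CPM scale, median subtraction, quantile normalization, array weights, a replicate block and left-out libraries.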

Additional observations from a re-analysis of the deposited data

Results flagged for a closer look

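In 6 of 36 groups of 6 libraries examined, 1 library stood far from the others by Dixon's test, of which chance flags about 1 in 20. For Lpin1, WT 4 was at 6.15 log2 CPM against 8.49 in the next WT library. For Dgat1, DKO 1 was at 3.70 log2 CPM against 4.03 in the next DKO library. For Pnpla3, WT 1 was at 3.78 log2 CPM against 0.34 in the next WT library. The same libraries stood out in the differences of 2 genes, with Lpin1 minus Lpin2 at -2.43 in WT 4 and Pnpla3 minus Pnpla2 at -2.23 in WT 1. Dgat1 minus Dgat2 was -4.69 in DKO 2, against -5.03 in the next DKO library.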

How the results depend on the processing

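Agpat2 kept its direction and its call in each of 23 alternatives, with log2 fold changes of -0.73 to -0.51 and adjusted p of 0.000445 to 0.0231. The number of the 9 genes called was 1 in 22 of the 23 and 2 with the replicate block, where G0s2 passed (adjusted p = 0.0281). The labels do not say whether libraries with a shared number form a pair, and the values did not settle it. Same-numbered libraries had correlated deviations over 0.1 in 2 of 6 pairs (-0.08 to 0.29). In the 6 libraries of each group, 3 DKO and 4 WT libraries correlated best with their own number. With the replicate block the pathway count was 13, all lower in DKO, against 4; it was 1 without the mean trend and 1 with quantile normalization, and 1 to 5 with 1 library left out. Calls over all genes numbered 214, 397 with the block, 356 with array weights, 138 without the mean trend, 109 with quantile normalization and 92 to 373 with 1 library left out.

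With 1 library left out, G0s2 minus Pnpla2 ran from -1.48 to -0.86, Lpin1 minus Lpin2 from -0.17 to 0.34 and Agpat2 minus Gpam from -0.72 to 0.035. Without both libraries numbered 1, G0s2 minus Pnpla2 was -1.13 and passed. Leaving out DKO 1 and DKO 2, chosen after seeing the data, turned the sign of Lpin2 (-0.15), Pnpla2 (0.14), Pnpla3 (-0.18) and Pnpla3 minus Pnpla2 (-0.32). Single libraries turned those of Gpam (-0.60 to 0.14, reversed without DKO 3), Lpin1 (-0.057 to 0.53, reversed without WT 4) and Lpin2 (-0.0055 to 0.29, reversed without DKO 1). The cause was not tested. Of the unlisted results, Dgat1, Dgat2, Gpd1 and Dgat1 minus Dgat2 kept direction and side of the threshold in every alternative. Depth could not be judged from log2 CPM. Filters left out Pnpla3 at a mean of 1, and Gpam and Pnpla3 at 3 log2 CPM.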

Other observations

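Among all genes, Agpat5 was the one whose values were most like those of Lpin1 (Pearson r 0.95 over 12 libraries, group means removed; a description, chosen after its value was seen). WT 4 held the lowest WT value of both, 3.01 log2 CPM for Agpat5, against 3.51 to 3.68 in the other 5 WT libraries and 3.48 to 3.76 in DKO. The value of r without WT 4 was not computed, so how far 0.95 rests on that library is not known.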
